A study of Mus musculus with 8 samples.

Results

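Messenger RNA was compared between ZsGreen+ and ZsGreen- T follicular helper (Tfh) cells of the spleen, 2 libraries on each side. These 4 libraries, out of 8 in the series, were chosen by their labels: spleen as tissue, sorted with or without ZsGreen, 1 pair from experiment 1 and 1 pair from experiment 2. All mice were K/BxN animals, a strain that develops autoimmune arthritis, with a Th17 fate-mapping reporter, so that cells keep the fluorescent protein ZsGreen once they have passed through the Th17 state. The sources used here do not give the gene that drives the reporter, the age of the mice, or whether animals were pooled. Splenic CD4+ T cells were enriched with a negative selection kit and sorted as CD4+ TCRβ+ CD25- CXCR5+ PD-1+. The sorted cells were then split into ZsGreen+ Tfh cells (Th17-derived, by the reporter) and ZsGreen- Tfh cells, and RNA was taken up in Trizol. The other 4 libraries are the same 2 sorts from Peyer's patch of the same kind of mice. The comparison asks which genes form a signature of Tfh cells with a Th17 past.

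Th17 cells are CD4+ T cells that respond to IL-23 and IL-1, carry the chemokine receptor CCR6 and make IL-17A and IL-17F, cytokines that act on epithelium and recruit neutrophils. Tfh cells depend on the repressor Bcl6, use CXCR5 to enter B cell follicles, carry the receptor PD-1 and give B cells IL-21, IL-4 and contact help. In K/BxN mice this help sustains the autoantibodies that cause the arthritis, and Tfh cells formed in the gut are known to reach the spleen in this strain.

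The spleen libraries held 15323743 and 14298133 estimated counts for ZsGreen+ cells and 15234833 and 10009823 for ZsGreen- cells (experiments 1 and 2). Experiment 2 was less even: its 10 most abundant genes held 14.7% to 19.9% of a spleen library's counts against 4.61% to 5.64% in experiment 1, and the median tested gene had 101 and 179 counts against 334.5 and 347. The libraries had the markers of the sort, with Cd4 at 1300.2 and 682 CPM in ZsGreen+ and 1356 and 980.5 CPM in ZsGreen- cells (CPM scaled by TMM, experiments 1 and 2 in this order throughout). Cd8a had at most 2 counts in a library, Cd79a at most 5 and Krt8 0, but other markers of such cells had more. Cd8b1 had 46 and 97 counts in ZsGreen+ and 87 and 67 in ZsGreen- cells, and Cd79b 10 and 36 against 6 and 4. Epcam had 27 and 33 counts against 28 and 38, and the myeloid marker Lyz2 143 and 47 against 143 and 65. The Y-linked genes Ddx3y, Eif2s3y, Kdm5d and Uty had 0 counts in the ZsGreen- library of experiment 1 and 374, 357, 272 and 91 counts in the ZsGreen+ library of that experiment, while both sides of experiment 2 held them, and Xist was present in all 4. In experiment 1 the sort difference therefore cannot be told apart from a difference in the sex of the mice. None of these 4 Y-linked genes passed the test. Below, a library is written as its sort and its experiment where a call was lost without it, ZsGreen+ 1 being the ZsGreen+ library of experiment 1, and such a library is a spleen library unless Peyer's patch is named.

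Across the 14418 genes tested, 653 (4.53%) were higher and 590 (4.09%) lower in ZsGreen+ cells at an adjusted p under 0.05 (edgeR's quasi-likelihood test with experiment as a block, as for every adjusted p below). The counts of calls in the gene lists below are to be read beside these shares of all tested genes. At least 4-fold were 135 of the higher genes (0.936% of those tested) and 89 of the lower ones (0.617%). The study's own criterion, 1.5-fold with an unadjusted p under 0.05, took 923 higher genes (6.4%) and 1077 lower genes (7.47%). The median log2 fold change of all tested genes was -0.03, a value that TMM scaling sets near 0. There were 612 protein-coding genes among the higher calls and 552 among the lower ones, long noncoding RNAs 14 and 16 of 920 tested, and processed pseudogenes 18 and 11 of 1039. The count of 1243 calls was 592 without ZsGreen+ 1, 487 without ZsGreen+ 2 and 510 without ZsGreen- 2. Without the block for experiment edgeR called 0 genes, with 398 below an unadjusted p of 0.05 and 5% of the genes tested would be 721.

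**Figure D1:**
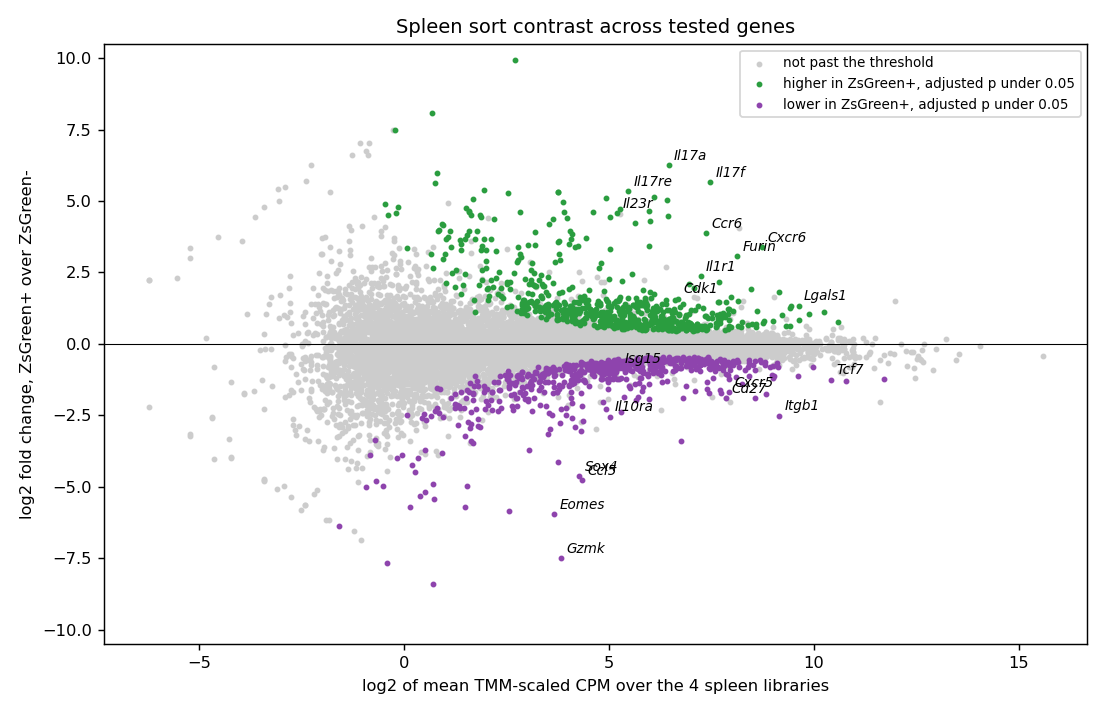
Log2 fold change of each tested gene (ZsGreen+ over ZsGreen- spleen Tfh cells) against the log2 of its mean level in TMM-scaled CPM, with the genes at an adjusted p under 0.05 in green (653 higher) and purple (590 lower). The labelled Th17 genes lie at the top right and Gzmk, Eomes, Ccl5 and Sox4 at the bottom.

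Within the experiments, 1241 of the 1243 called genes had the same sign, which the call itself favours. The exceptions were Gm45234 and the immunoglobulin gene Ighg1. Ighg1 had a difference of 2.80 in experiment 1 and -1.07 in experiment 2 on the log2 scale. The median absolute log2 difference of the called genes was 0.944 in experiment 1 and 1.13 in experiment 2, and 432 of the 1243 differed more in experiment 1. With 1 library left out, calls were lost for Gm45234 and Ighg1 without 3 or more of the 8 libraries in turn (adjusted p up to 0.923).

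**Figure D2:**
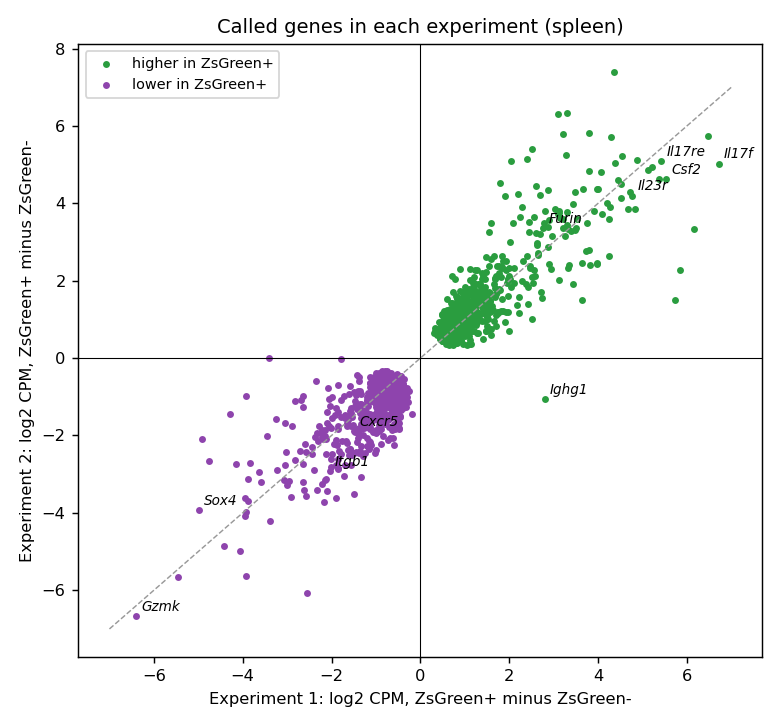
Log2 CPM difference, ZsGreen+ minus ZsGreen-, of each called gene in experiment 1 (x axis) and experiment 2 (y axis), with the line of equal values dashed. The points lie at the lower left and upper right except Ighg1 and, at 0 in experiment 2, Gm45234.

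The genes of Th17 effector cytokines were among the largest increases. Il17f, which encodes IL-17F, had 81.8 and 606 CPM in ZsGreen+ and 0.641 and 18.5 CPM in ZsGreen- cells. Il17a, which encodes IL-17A, had 93.1 and 253 CPM against 0.909 and 4.6 CPM. For both genes each ZsGreen+ library was above both ZsGreen- libraries, and the levels on both sides were higher in experiment 2. The log2 fold changes were 5.66 ± 0.39 (SE) for Il17f (adjusted p = 0.000776) and 6.26 ± 0.77 for Il17a (adjusted p = 0.0231). Csf2, the gene of the myeloid growth factor GM-CSF, had 11.2 and 40.9 CPM against 0.107 and 1.53 CPM, again without overlap (5.33 ± 0.53, adjusted p = 0.000184). Of the 18 helper cytokine genes tested, 5 rose and 1 fell, with a median of 0.37. The others that rose were Il2 (2.17) and Tnfsf11, the gene of RANKL (0.85), and Il4, a cytokine of Tfh cells that drives class switching, fell (-1.36). Il22, a cytokine that acts on epithelium, had 94.4 and 969 CPM against 2.08 and 95 CPM and did not pass (adjusted p = 0.0704). Il21, the Tfh cytokine, was at 186 and 144 CPM in ZsGreen+ and 125 and 247 CPM in ZsGreen- cells (adjusted p = 0.941). Calls that 1 library decided were those of Tnfsf11 without ZsGreen+ 2 (adjusted p up to 0.0929) and Il17a, Il2 and Il4 without 3 or more of the 8 libraries in turn (adjusted p up to 0.361).

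Of 10 chemokine genes tested, 3 rose and 2 fell. Cxcl3, a ligand of the neutrophil receptor CXCR2, had 325 counts over the ZsGreen+ libraries and 0 over the ZsGreen- libraries, at least 89.7-fold higher against a floor of 3 counts over the group. Ccl20, the ligand of CCR6, had 0.532 and 13.6 CPM against 0.0535 and 0.46 CPM (4.45 ± 0.89, adjusted p = 0.012). Ccl1, the ligand of CCR8, rose by 3.81. Ccl5 and Ccl4, chemokines made by cytotoxic T cells, went the other way. Ccl5 had 1.6 and 1.29 CPM in ZsGreen+ and 36.9 and 40.9 CPM in ZsGreen- cells (-4.78 ± 0.35, adjusted p = 1.37e-05), and Ccl4 changed by -2.31. The levels of Ccl5 were nearly the same in both experiments on each side. The call was lost in Ccl20 without ZsGreen- 2 or ZsGreen+ 2 (adjusted p up to 0.355) and Ccl1 and Ccl4 without 3 or more of the 8 libraries in turn (adjusted p up to 0.378).

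Among 21 transcription factors of the Th17 lineage, 6 rose and 1 fell (median 0.60). Rora, which encodes the nuclear receptor RORα, was at 214 and 566 CPM in ZsGreen+ and 83.9 and 153 CPM in ZsGreen- cells. It was plentiful on both sides, and both ZsGreen+ libraries were above both ZsGreen- libraries (1.66 ± 0.27, adjusted p = 0.0113). Nr1d1, the circadian repressor REV-ERBα that binds the same DNA element as RORα, rose by 3.14 (adjusted p = 0.000117) and shares 8.55% of its exon length with Thra. Ahr, the receptor for dioxins and tryptophan products, rose by 1.65, Rbpj, the DNA-binding factor of the Notch pathway, by 1.82 and the AP-1 factor Batf by 0.60. Zbtb32, a repressor of cytokine genes, was the member that fell (-1.45). Tbx21, which encodes the Th1 factor T-bet, was at -0.92 on the log2 scale (adjusted p = 0.159) and Stat3, the transducer of IL-6 and IL-23 signals, -0.37 (adjusted p = 0.146). Not all calls held with each library left out, and those lost were Rora without ZsGreen- 1 or ZsGreen- 2 (adjusted p up to 0.12), Zbtb32 without ZsGreen- 2 or ZsGreen+ 2 (adjusted p up to 0.12) and Batf without 3 or more of the 8 libraries in turn (adjusted p up to 0.302).

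Receptors for IL-17, IL-23, IL-1 and IL-18 were higher and those for IL-10, IL-6 and IL-21 lower. Il17re, a chain of the IL-17C receptor, had 78.6 and 93.4 CPM in ZsGreen+ and 1.71 and 2.6 CPM in ZsGreen- cells, and Il23r, the specific chain of the IL-23 receptor, 47.3 and 92.3 CPM and 1.6 and 4.9 CPM. In both genes the ZsGreen+ libraries were far above the ZsGreen- libraries in each experiment (5.36 ± 0.26, adjusted p = 1.7e-06, and 4.57 ± 0.26, adjusted p = 4.79e-06). Il17rc (3.27), a chain shared by IL-17A and IL-17F receptors, Il1r1 (2.37), the IL-1 receptor, and Il12rb1 (1.02), which pairs with the IL-23 receptor, rose too. So did both chains of the IL-18 receptor (Il18r1 1.05, Il18rap 1.59), the interferon-γ receptor gene Ifngr1 (1.27) and Il2ra (2.03), which encodes CD25, the marker the sort gated out. Il2ra was at 20.6 and 13.6 CPM against 4.97 and 3.22 CPM. On the lower side Il10ra had 17.2 and 3.51 CPM in ZsGreen+ and 76.3 and 32 CPM in ZsGreen- cells (-2.54 ± 0.24, adjusted p = 9.17e-05), and its partner Il10rb changed by -0.60. The IL-6 receptor chains Il6ra and Il6st (gp130) changed by -1.46 and -1.73, and Il21r by -0.81. In all, 9 of 31 receptor chains rose and 5 fell (median 0.12). When 1 library was dropped, the call was lost for Il17rc without ZsGreen- 1 or ZsGreen+ 1 (adjusted p up to 0.263), Il12rb1 without ZsGreen- 2 or ZsGreen+ 2 (adjusted p up to 0.0775), Il2ra without ZsGreen- 2 or ZsGreen+ 1 (adjusted p up to 0.131), Il6ra without ZsGreen+ 1 or ZsGreen+ 2 (adjusted p up to 0.0637) and Ifngr1 and Il10rb without 3 or more of the 8 libraries in turn (adjusted p up to 0.262).

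**Figure D3:**
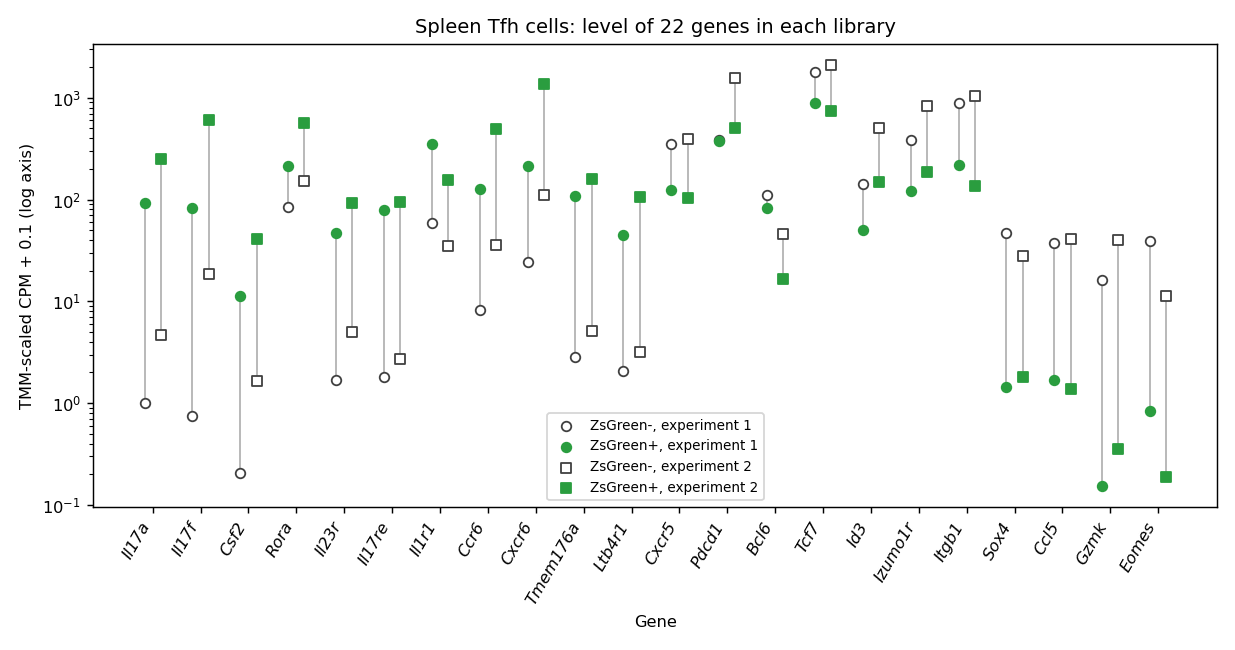
TMM-scaled CPM (plus 0.1, log axis) of 22 genes in each spleen library, ZsGreen+ in green and ZsGreen- open, circles for experiment 1 and squares for experiment 2, with the 2 libraries of an experiment joined. From Il17a to Ltb4r1 the green points are on top in each experiment, and from Tcf7 to Eomes they are at the bottom.

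The promoters of the 2 receptor genes with the smallest p are shown because each holds the letters TNGGTCA. These are a looser form of the core of the DNA element bound by RORα and REV-ERBα, with any base at N. Each sequence is the 120 bases before the RefSeq start in GRCm38.p6, 5′ to 3′ on the gene's strand. The letters are in capitals (either strand). The one of Il17re lies at chr6:113458651-113458770 on the plus strand and that of Il23r at chr6:67491856-67491975 on the minus strand.
Il17re: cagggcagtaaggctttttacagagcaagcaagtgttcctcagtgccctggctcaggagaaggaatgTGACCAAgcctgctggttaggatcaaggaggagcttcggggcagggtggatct
Il23r: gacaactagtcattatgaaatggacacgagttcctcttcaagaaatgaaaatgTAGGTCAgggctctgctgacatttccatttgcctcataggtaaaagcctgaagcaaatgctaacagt
The match begins 53 bases before the start in Il17re, on the reverse strand, and 67 bases before it in Il23r. N is T in Il17re and A in Il23r, and the shares below count any base at N. In the 250 bases before a start, 8.44% of the 12446 windows of all tested genes hold these letters (9790 genes matched a RefSeq entry by symbol). They were in 12.2% of the 606 windows of genes that rose and in 7.92% of the 606 windows of genes that fell. The windows of Il17a, Il17f, Tmem176a, Tmem176b, Ltb4r1, Furin and Fes hold no such match. A match is only a match of letters.

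A list of 28 tested genes linked to the Th17 state or little studied in Tfh cells, chosen with these data known, had 22 members higher and 1 lower, with a median of 3.83. The members carry out unrelated tasks. Tmem176a and Tmem176b, ion channel proteins of intracellular membranes, had 107 and 159 CPM against 2.73 and 5.06 CPM and 102 and 228 CPM against 3.31 and 6.44 CPM. Both were at least 15 times higher in each ZsGreen+ library than in either ZsGreen- library (5.14 ± 0.37, adjusted p = 0.00036, and 5.03 ± 0.47, adjusted p = 0.00538). Ltb4r1, through which cells follow leukotriene B4, had 44.3 and 106 CPM against 1.98 and 3.06 CPM (4.73 ± 0.59, adjusted p = 0.0101). Pde5a, which breaks down cyclic GMP, rose by 5.30, the homeobox factor Vax2 by 5.12, the Src-family kinase Blk by 4.63, the metalloproteinases Mmp25 and Adam12 by 4.61 and 3.97, and the water and glycerol channel Aqp3 by 3.32. Furin, a protease that activates proproteins such as TGF-β, was one of the most abundant, at 670.5 and 322 CPM against 98.8 and 31.4 CPM (3.07 ± 0.20, adjusted p = 1.1e-05). Smox, spermine oxidase, was the member that fell (-1.72). Pxdc1 (5.39) and 1700012B07Rik (4.96), genes of little known function outside the list, were also among the 15 largest increases. With 1 library left out, calls were lost for Tmem176b, Ltb4r1, Vax2 and Smox without 3 or more of the 8 libraries in turn (adjusted p up to 0.336).

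Many called genes were next to each other in the order of tested protein-coding genes. A neighbour here is the next such gene on the chromosome at any distance, and Arrdc4 and Mctp2, for example, lay 3328589 bases apart. Of the 612 protein-coding genes that rose, 150 (24.5%) had a neighbouring tested protein-coding gene that also rose, in 83 pairs, whereas 10.1% of all 11645 coding genes tested had such a neighbour. Of the 552 that fell, 126 (22.8%) had a neighbour that fell, in 67 pairs, against 9.11% of all. On mouse build mm39 the pairs with the largest changes were Il17a and Il17f on chromosome 1 (42650 bases apart), Tmem176a and Tmem176b on chromosome 6 (overlapping by 577 bases) and Blk and Fam167a on chromosome 14 (5.29 for Fam167a). Lilr4b and Lilrb4a on chromosome 10 rose by 4.66 and 4.24, and these near-identical immunoglobulin-like receptor genes can share reads, as can Lilrb4a and Gm49339 over 35.3% of its exon length. Il17re and Il17rc (669 bases apart), Fes and Furin (639 bases apart), Cxcr6 and Xcr1, and Ccdc102a and Adgrg5 were other pairs of this kind. Those that fell together included Nrp1 and Itgb1 (182291 bases apart) and Igfbp4 and Ccr7 (89804 bases apart). Gpr83 and Izumo1r, and the drug transporter genes Abcb1a and Abcb1b, did so too. The libraries were not all strand-specific, so reads that run from 1 gene into a close neighbour could be counted for that neighbour, which was not tested. Calls that 1 library decided were those of Fam167a without ZsGreen- 1 or ZsGreen+ 1 (adjusted p up to 0.379) and Lilr4b and Lilrb4a without 3 or more of the 8 libraries in turn (adjusted p up to 0.348).

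One stretch of chromosome 7, bounded by called genes and chosen after its values were seen, held several of them. From Utf1 to Olfr60 (chr7:139523702-139941584, mm39) 15 genes were tested, of which 9 rose, and all 15 had a positive log2 fold change. Adam8, a membrane metalloproteinase of leukocytes, had 124 and 121 CPM in ZsGreen+ and 7.27 and 4.14 CPM in ZsGreen- cells, the highest of the genes that rose there (4.31 ± 0.34, adjusted p = 0.000387). Scart1 and Scart2, scavenger receptors known from γδ T cells, had 73.4 and 25.5 CPM against 9.89 and 3.37 CPM and 17 and 6.85 CPM against 2.51 and 0.613 CPM. For both genes each ZsGreen+ library was above both ZsGreen- libraries (2.82 and 2.88). Around them 3 olfactory receptor genes (Olfr524 3.14, Olfr525 2.99, Olfr60 4.63), the prion-like gene Sprn (3.28), Utf1 (2.24) and the noncoding Gm16201 (3.37) rose from levels below 3 CPM. Between them Tubgcp2, Zfp511, Fuom, Echs1 and Mtg1 had log2 fold changes from 0.17 (Mtg1) to 0.61 (Fuom) and did not pass, nor did Paox (1.41, adjusted p = 0.063). The call was lost in Scart1 without ZsGreen- 1 or ZsGreen- 2 (adjusted p up to 0.0846), Scart2 without ZsGreen+ 1 (adjusted p up to 0.106), Sprn without ZsGreen- 1 (adjusted p up to 0.0836) and Olfr525, Utf1 and Gm16201 without 3 or more of the 8 libraries in turn (adjusted p up to 0.316).

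Of 24 receptors that place cells in tissue, 6 rose and 3 fell (median 0.10). Cxcr6, the receptor for CXCL16 on tissue-resident T cells, had 215 and 1349 CPM against 24.1 and 110.3 CPM and Ccr6 126 and 491 CPM against 8.18 and 35.4 CPM. In each experiment both were more than 8 times the level of ZsGreen- cells (3.39 ± 0.28, adjusted p = 0.000334, and 3.88 ± 0.21, adjusted p = 5.5e-06). The gut-homing receptor Ccr9 rose by 3.43, the skin- and Th2-associated Ccr4 by 1.13 and P2ry10, a receptor for lysophosphatidylserine, by 0.61. Ackr3, a scavenger of CXCL12, had 0 counts in ZsGreen- cells and was at least 23.2-fold higher against a floor of 3 counts over the group. The receptors of lymphoid tissue fell: Cxcr5 was at 124 and 105 CPM in ZsGreen+ and 351 and 389 CPM in ZsGreen- cells, all sorted as CXCR5+ (-1.69 ± 0.17, adjusted p = 0.000127). Ccr7, which leads T cells into lymph nodes, changed by -1.88 and S1pr2, which retains cells in germinal centres, by -1.19. Among 11 lipid mediator genes the leukotriene receptors Ltb4r1 and Cysltr1 (5.06) rose, while Ptgfrn (-1.57) and the prostaglandin D synthase Hpgds (-1.60) fell. Not all calls held with each library left out, and those lost were S1pr2 without ZsGreen+ 2 (adjusted p up to 0.0765) and P2ry10, Ackr3, Ptgfrn and Hpgds without 3 or more of the 8 libraries in turn (adjusted p up to 0.371).

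Of 20 integrin and adhesion genes 1 rose and 4 fell (median -0.23), where 4.53% of all tested genes rose and 4.09% fell. The 1 that rose is thus near the share of all genes. Itgb1, the integrin β1 chain, had 216 and 136 CPM in ZsGreen+ and 892 and 1031 CPM in ZsGreen- cells (-2.52 ± 0.25, adjusted p = 0.000517). The 4 values formed a low pair and a high pair, with ZsGreen+ low. Itga6 (-0.97), an α chain that pairs with β1, and the tetraspanin Cd9 (-0.73) fell as well, and Itgb3 (0.97) rose. Itga4, the other chain of several gut and endothelial integrins, had -0.38 (adjusted p = 0.179) and Itgb7, the gut chain, 0.64 (adjusted p = 0.0704). When 1 library was dropped, the call was lost for Itga6 without ZsGreen- 1 or ZsGreen+ 1 (adjusted p up to 0.138), Cd9 without ZsGreen- 2 or ZsGreen+ 2 (adjusted p up to 0.297) and Itgb3 without 3 or more of the 8 libraries in turn (adjusted p up to 0.549).

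The Tfh genes moved down in part. Of 21 transcription factors of Tfh cells, 9 fell and 2 rose (median -0.53). Bcl6 itself was at 82.8 and 16.6 CPM in ZsGreen+ and 110.1 and 46 CPM in ZsGreen- cells, and the groups overlapped, with the higher levels of both sorts in experiment 1 (adjusted p = 0.0922). Tcf7, which encodes TCF-1, a factor upstream of Bcl6, was among the most abundant transcripts, at 897 and 738 CPM against 1797 and 2096 CPM (-1.25 ± 0.22, adjusted p = 0.00541). Id3, an inhibitor of E proteins, had 50 and 149 CPM against 143 and 499 CPM (-1.62 ± 0.19, adjusted p = 0.000624), while its relative Id2, which opposes the Tfh state, rose by 1.01. Lef1 (-0.57), the partner of TCF-1, which shares 13.7% of its exon length with Lef1os1, Tox (-0.75), Tox2 (-0.63), the B cell coactivator gene Pou2af1 (-0.53), Foxp1 (-0.79), Klf2 (-1.09) and Cebpa (-1.95) fell. The factor Maf was at 713 and 145 CPM and 658 and 148 CPM (adjusted p = 0.913). Of the list 3 fell without ZsGreen+ 2 and 5 without ZsGreen- 2. With 1 library left out, calls were lost for Tcf7 without ZsGreen+ 2 (adjusted p up to 0.127), Id2 and Foxp1 without ZsGreen- 2 or ZsGreen+ 2 (adjusted p up to 0.0799) and Lef1, Tox, Tox2 and Pou2af1 without 3 or more of the 8 libraries in turn (adjusted p up to 0.426).

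Of 22 surface molecules and helper genes of Tfh cells, 6 fell and 2 rose (median -0.26). Izumo1r, folate receptor 4 of Tfh and regulatory T cells, had 121 and 188 CPM in ZsGreen+ and 384 and 832 CPM in ZsGreen- cells (-1.91 ± 0.18, adjusted p = 8.72e-05). Slamf6 (-1.18) and its adaptor SAP, encoded by Sh2d1a (-1.04), which Tfh cells need to bind B cells, fell, as did Tnfsf4, the OX40 ligand gene (-3.41). Slamf1 (1.21) and the phosphatase inhibitor gene Ppp1r14c (4.59) rose. Pdcd1, which encodes the sort marker PD-1, was at 374 and 505 CPM against 386 and 1578 CPM: close in experiment 1 and lower in ZsGreen+ cells in experiment 2 (adjusted p = 0.16). The costimulator Icos was at 259 and 840.0 CPM and 208 and 736 CPM (adjusted p = 0.556). The 6 lower genes were 3 without ZsGreen+ 2 or without ZsGreen- 2. Calls that 1 library decided were those of Slamf6 without ZsGreen+ 2 (adjusted p up to 0.0704), Sh2d1a without ZsGreen- 2 or ZsGreen+ 2 (adjusted p up to 0.207), Tnfsf4 without ZsGreen- 2 (adjusted p up to 0.0527) and Ppp1r14c without 3 or more of the 8 libraries in turn (adjusted p up to 0.178).

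**Figure D4:**
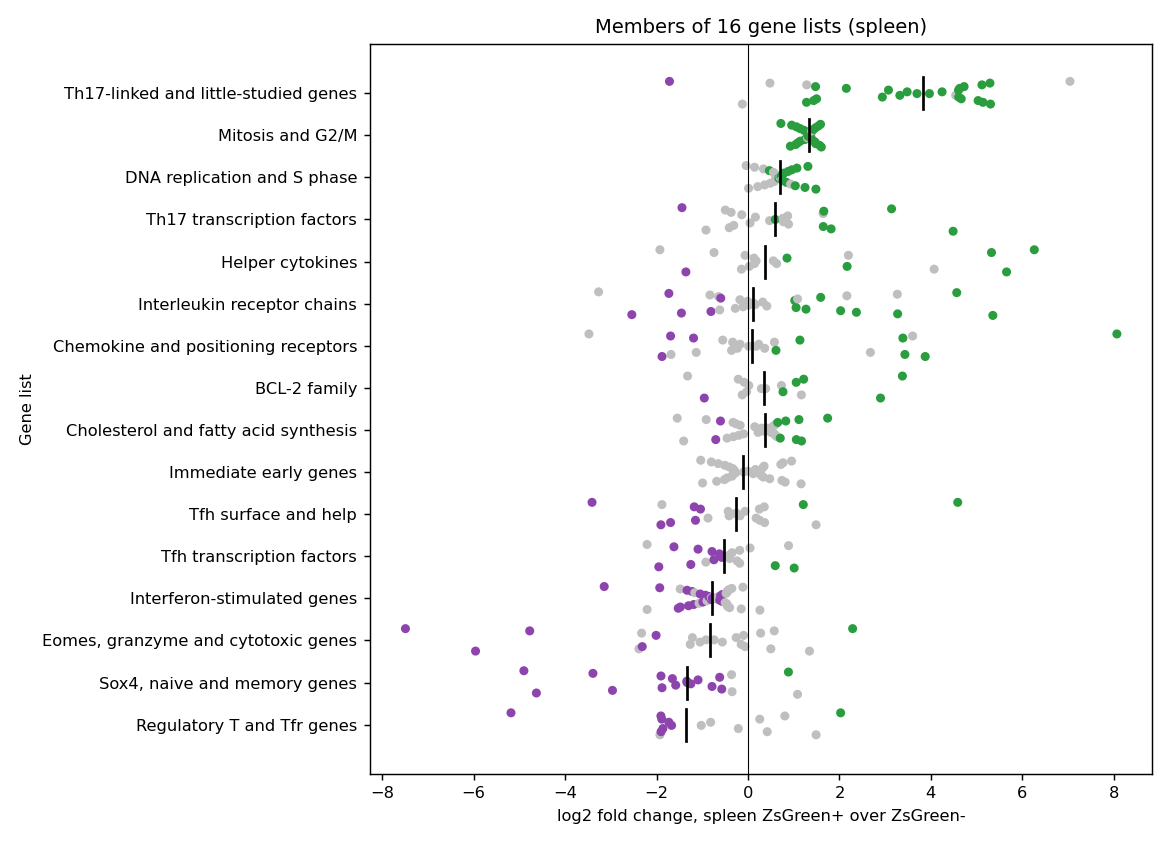
Log2 fold change (spleen ZsGreen+ over ZsGreen-) of the tested members of 16 gene lists, green for called higher, purple for called lower, grey for not called, with a bar at the median. The medians run from 3.83 in the Th17-linked list to -1.35 in the regulatory T cell list, mitotic genes lie together between 0.72 and 1.60, and fitted values of genes with 0 counts on 1 side (such as Ackr3) depend on the prior count.

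Genes of naive and central memory T cells fell in 15 of 19 cases tested, with 1 higher and a median of -1.33. Sox4, a transcription factor of developing lymphocytes, had 1.33 and 1.71 CPM in ZsGreen+ and 46.6 and 28 CPM in ZsGreen- cells (-4.63 ± 0.31, adjusted p = 9.39e-06). Cd27, a costimulator of the TNF receptor family, had 67 and 117 CPM against 210.1 and 534 CPM (-1.90 ± 0.18, adjusted p = 8.94e-05). Neither gene overlapped between the groups. Igfbp4 (-2.97), Dapl1 (-4.90), Actn1 (-1.66), Nsg2 (-1.58), Als2cl (-1.34) and Rflnb (-1.33), which are typical transcripts of naive T cells, fell along with Ccr7, Tcf7 and Lef1 above. Satb1, a chromatin organiser, was the member that rose (0.88), and Il7r, the survival receptor of resting T cells, had 1.08 (adjusted p = 0.0706). The number that fell was 10 without ZsGreen+ 2 and 10 without ZsGreen- 1. The call was lost in Igfbp4 and Als2cl without ZsGreen- 1 (adjusted p up to 0.0568), Satb1 without ZsGreen- 2 or ZsGreen+ 2 (adjusted p up to 0.0956) and Dapl1 without 3 or more of the 8 libraries in turn (adjusted p up to 0.371).

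Cytotoxic and type 1 genes had 5 of 22 members lower and 1 higher (median -0.83). Gzmk, granzyme K, had 0.0532 and 0.257 CPM in ZsGreen+ and 16.2 and 40.3 CPM in ZsGreen- cells, and Eomes, a T-box factor of cytotoxic and memory T cells, 0.745 and 0.0857 CPM and 38.8 and 11.2 CPM. Both were below 1 CPM in each ZsGreen+ library and were the largest decreases among genes with at least 5 CPM (-7.49 ± 0.60, adjusted p = 3.31e-05, and -5.96 ± 0.47, adjusted p = 2.2e-05). Crtam (-2.01), a receptor of cytotoxic CD4+ T cells, fell with Ccl5 and Ccl4, and the factor Zeb2 rose (2.29). Perforin, from Prf1, was low on both sides, at 0.585 and 1.37 CPM and 4.33 and 4.14 CPM (adjusted p = 0.0716), and Ifng had 19.2 and 52 CPM and 20.4 and 133 CPM (adjusted p = 0.308). Not all calls held with each library left out, and those lost were Crtam without ZsGreen- 2 or ZsGreen+ 2 (adjusted p up to 0.0847) and Zeb2 without ZsGreen- 1 or ZsGreen+ 1 (adjusted p up to 0.0622).

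Markers of regulatory T and follicular regulatory T cells fell in 7 of 16 cases and rose in 1, Il2ra (median -1.35). Foxp3, the defining factor, had 12.1 and 3.17 CPM in ZsGreen+ and 34.2 and 18.1 CPM in ZsGreen- cells (-1.90 ± 0.30, adjusted p = 0.00292) and shares 12.9% of its exon length with Ccdc22. Ikzf2 (Helios) had 147 and 62.2 CPM against 339 and 299 CPM (-1.73 ± 0.32, adjusted p = 0.02). All ZsGreen+ values of both genes lay below all ZsGreen- values. Lrrc32, which presents TGF-β on regulatory T cells, changed by -5.19, Nrp1 by -1.86, Gpr83 by -1.67 and Ikzf4 by -1.89. In bulk libraries fewer cells of a type and less RNA per cell cannot be told apart. When 1 library was dropped, the call was lost for Ikzf2 and Nrp1 without ZsGreen- 2 or ZsGreen+ 2 (adjusted p up to 0.148) and Lrrc32 and Ikzf4 without 3 or more of the 8 libraries in turn (adjusted p up to 0.335).

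Cell cycle genes were higher together in ZsGreen+ cells. Of 29 genes of mitosis and the G2/M phase, 27 rose and none fell by edgeR (0 lower at an unadjusted p under 0.05 and 0 by DESeq2, and the other members, Ccnb1 and Cenpf, had a positive change), with a median of 1.33, and all 29 were higher in both experiments. Cdk1, the mitotic kinase, had 58.1 and 263 CPM in ZsGreen+ and 23.5 and 69.1 CPM in ZsGreen- cells, and the kinesin Kif11 129 and 97.3 CPM and 52.6 and 33.9 CPM. For Kif11 both ZsGreen+ libraries were above both ZsGreen- libraries, and for Cdk1, which was higher in experiment 2 on both sides, this held only within each experiment (1.59 ± 0.25, adjusted p = 0.00847, and 1.38 ± 0.18, adjusted p = 0.000908). Mki67, which encodes Ki-67, rose by 1.22, the checkpoint kinase Bub1 by 1.57 and Cdc20, the activator of the anaphase-promoting complex, by 1.30. Of 29 DNA replication and S phase genes, 14 rose and none fell by edgeR (22 higher and 0 lower at an unadjusted p under 0.05, 16 and 0 called by DESeq2), with a median of 0.70 and 26 members higher in both experiments. They included Rrm2 (1.48) and Tyms (0.88), which make deoxynucleotides, and Mcm3 (1.03) of the replicative helicase. The 27 mitotic genes were 13 without ZsGreen+ 1 and 18 without ZsGreen- 2. The 14 S phase genes were 5 without ZsGreen+ 1, 6 without ZsGreen+ 2 and 3 without ZsGreen- 2. With 1 library left out, calls were lost for Cdk1 without ZsGreen+ 1 or ZsGreen+ 2 (adjusted p up to 0.084), Mki67 and Cdc20 without ZsGreen+ 1 (adjusted p up to 0.0739), Bub1 and Tyms without ZsGreen- 2 or ZsGreen+ 1 (adjusted p up to 0.105) and Mcm3 without ZsGreen- 2 or ZsGreen+ 2 (adjusted p up to 0.0574).

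Mitotic genes are known to be switched on together in G2 through CCAAT boxes and the CHR element (TTTGAA). The promoters of Cdc20, which holds both, and Bub1, which holds CCAAT boxes without the CHR letters, are shown with these elements in capitals on either strand. They lie at chr4:118437344-118437463 and chr2:127831860-127831979 in RefSeq's GRCm38.p6, both on the minus strand.
Cdc20: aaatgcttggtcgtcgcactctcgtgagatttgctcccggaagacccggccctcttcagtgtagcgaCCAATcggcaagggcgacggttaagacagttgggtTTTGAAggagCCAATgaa
Bub1: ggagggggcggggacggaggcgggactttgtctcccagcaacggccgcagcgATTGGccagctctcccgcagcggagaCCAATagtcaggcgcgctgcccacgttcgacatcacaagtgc
In Cdc20 the CCAAT boxes begin 53 and 8 bases before the start and the CHR element 18 bases before it, and in Bub1 the CCAAT boxes begin 68 and 42 bases before it. A CCAAT box was in 21 of 23 windows of called mitotic genes (91.3%) against 35.6% of the windows of all tested genes. The CHR letters were in 12 of the 23 (52.2%) against 11.1%. For all tested mitotic genes, called or not, it was 23 of 25 windows (92%) for the CCAAT box and 12 of 25 (48%) for the CHR letters. These shares therefore describe the list and not the sort difference. Among the 606 windows of all genes that rose, 42.6% held a CCAAT box and 17.8% the CHR letters. In the 11 windows of called S phase genes the E2F letters TTNGCGC were found in 1, with 8.97% in all windows.

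Interferon-stimulated genes were lower in ZsGreen+ cells. Of 39 tested, 18 fell and none rose by edgeR (0 higher and 32 lower at an unadjusted p under 0.05, 0 and 21 called by DESeq2), with a median of -0.78, and 34 were lower in both experiments. Ifi214, a member of the DNA-sensing Ifi200 family, had 1.65 and 2.91 CPM in ZsGreen+ and 13.8 and 27.4 CPM in ZsGreen- cells (-3.15 ± 0.34, adjusted p = 0.000254). Isg15, a ubiquitin-like protein of the antiviral response, had 22.4 and 28.7 CPM against 29.7 and 70.8 CPM (-0.86 ± 0.20, adjusted p = 0.0201). For both genes the ZsGreen+ libraries were below the ZsGreen- libraries, for Isg15 by a small margin in experiment 1. The neighbours of Ifi214 on chromosome 1, Ifi213 (-1.33), Ifi209 (-1.30), Ifi208 (-1.53) and Ifi206 (-0.93), fell too, and reads of the Ifi200 family can be shared among its members. The interferon pathway factors Irf9 (-0.57) and Irf7 (-0.62) fell, as did Usp18 (-1.48), which removes ISG15, and Ifit1 (-1.22), which binds viral RNA. The 18 genes were 3 without ZsGreen+ 2 and 6 without ZsGreen- 2. Calls that 1 library decided were those of Isg15, Irf7, Usp18 and Ifit1 without ZsGreen- 2 or ZsGreen+ 2 (adjusted p up to 0.268), Ifi213 without ZsGreen- 1 or ZsGreen+ 2 (adjusted p up to 0.0802) and Ifi206 and Irf9 without 3 or more of the 8 libraries in turn (adjusted p up to 0.253).

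The promoters of Ifi214, Ifi213 and Isg15 are shown because each holds the interferon-stimulated response element, the site of IRF9 complexes, as GAAA, any 2 bases and GAAA again, in capitals (either strand, overlapping matches joined). They lie at chr1:173535958-173536077, chr1:173599273-173599392 and chr4:156200819-156200938 in RefSeq's GRCm38.p6, all on the minus strand.
Ifi214: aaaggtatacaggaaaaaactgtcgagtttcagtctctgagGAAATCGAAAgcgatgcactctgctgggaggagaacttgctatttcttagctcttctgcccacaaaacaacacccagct
Ifi213: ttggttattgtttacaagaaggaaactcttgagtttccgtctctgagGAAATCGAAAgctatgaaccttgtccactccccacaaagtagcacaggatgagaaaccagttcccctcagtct
Isg15: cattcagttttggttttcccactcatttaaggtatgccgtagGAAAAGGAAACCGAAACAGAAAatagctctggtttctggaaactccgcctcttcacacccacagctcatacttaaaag
The match begins 79 bases before the start in Ifi214 and 73 in Ifi213, where the 10 bases are the same, and Isg15 has 3 overlapping matches. These letters were in 11 of 15 windows of called interferon-stimulated genes (73.3%) and in 2.72% of the windows of all tested genes. They were in 6.11% of the windows of all genes that fell and in 2.48% of those that rose. Among all tested members of the interferon list, called or not, 19 of 34 windows (55.9%) held them. The genes were listed for their response to interferon, so a high share belongs to the list itself.

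Signalling genes were examined list by list. Among 36 genes of proximal T cell receptor signalling 2 rose and 6 fell by edgeR (2 higher and 11 lower at an unadjusted p under 0.05). Their median was -0.29, with 23 lower and 6 higher in both experiments. The increases were Blk and Sla (1.24), an adaptor that dampens receptor signalling. Those that fell included Cd3e (-0.83), the ubiquitin ligase Cblb (-0.59) and the diacylglycerol kinases Dgka (-0.62) and Dgkz (-0.74). None of 29 immediate early genes passed by edgeR (2 at an unadjusted p under 0.05, and 1 called by DESeq2). Without ZsGreen- 1, however, 5 of them were called lower and 1 higher, and their median of -0.10 became -0.53 without that library and 0.63 without ZsGreen- 2. Among 19 Notch genes Rbpj was the one that rose, while the glycosyltransferases Lfng (-0.58) and Mfng (-0.45), the target Hes5 (-1.69) and the gene Hes6 (-0.57) fell. Of 19 TGF-β genes the coreceptor Tgfbr3 (-2.24) and Smurf2 (-0.77) fell. Of 24 TNF family genes Tnfrsf25 (DR3, 2.10), Tnfsf14 (0.68) and Tnfrsf9 (0.54) rose with Tnfsf11, and Tnfrsf8 (CD30, -2.40), Tnfrsf14 (-0.72) and Fas (-0.57) fell with Cd27 and Tnfsf4. Of 15 inhibitory receptors Cd160 (1.08) rose and Tigit (-0.73) fell. The counts of the TGF-β and inhibitory receptor lists are near the 8.62% of all tested genes called in either direction. The call was lost in Smurf2 without ZsGreen- 2 or ZsGreen+ 2 (adjusted p up to 0.12), Tnfrsf8 without ZsGreen+ 1 (adjusted p up to 0.153) and Cd3e, Cblb, Dgka, Dgkz, Lfng, Mfng, Hes5, Hes6, Tnfsf14, Tnfrsf9, Tnfrsf14, Fas and Tigit without 3 or more of the 8 libraries in turn (adjusted p up to 0.495).

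In the BCL-2 family, 5 of 16 rose and 1 fell. Bik (3.38) and Bcl2l11 (1.22), which promote cell death, rose together with Bcl2l1 (0.76), Bcl2a1a (2.90) and Bcl2a1d (1.05), which oppose it, and the last 2 are near-identical copies that can share reads. Bid fell (-0.96) and shares 17.7% of its exon length with Bcl2l13. Of 34 genes of cholesterol and fatty acid synthesis 7 rose and 2 fell (median 0.37). Sqle (1.06), Mvd (1.17), Hsd17b7 (1.11), Idi1 (0.83), Cyp51 (0.70) and Fdft1 (0.65, with 18.3% of its exon length shared with the far more abundant Ctsb) belong to the cholesterol branch, Fads2 (1.74) desaturates fatty acids, and the genes that fell were the fatty acid enzymes Fasn (-0.60) and Scd2 (-0.71). Of 26 glycolysis and hypoxia genes Ero1a (1.48), Slc2a3 (0.94), a glucose transporter, and Pgk1 (0.61) rose and P4ha1 (-0.68) fell, and 1 of 20 nuclear oxidative phosphorylation genes rose, Uqcrfs1 (0.58), a share near the 4.53% of all tested genes that rose. Not all calls held with each library left out, and those lost were Bcl2a1a without ZsGreen+ 2 (adjusted p up to 0.0841), Sqle and Hsd17b7 without ZsGreen- 2 or ZsGreen+ 1 (adjusted p up to 0.126), Mvd and Scd2 without ZsGreen- 2 or ZsGreen+ 2 (adjusted p up to 0.252), Fads2 without ZsGreen- 1 or ZsGreen+ 1 (adjusted p up to 0.173), Slc2a3 without ZsGreen+ 1 (adjusted p up to 0.0581) and Bcl2l1, Bid, Idi1, Cyp51, Fdft1, Fasn, Pgk1, P4ha1 and Uqcrfs1 without 3 or more of the 8 libraries in turn (adjusted p up to 0.45).

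Transporters and secreted factors also differed. Of 29 transporter and channel genes 4 rose and 6 fell, with Slc16a6 (1.86), Slc15a3 (2.49) and the potassium channel Kcnk5 (0.87) higher and Abcb1a (-2.16), Abcb1b (-1.60), Abcb9 (-2.02) and the sodium pump subunit Atp1b1 (-2.90) lower. Overlapping exons of Tmem132a, Amz2 and Nme7 cover 28.1%, 21.5% and 18.7% of the exons of Slc15a3, Slc16a6 and Atp1b1. Among 15 neuropeptide and secreted factor genes Igfbp7 (3.40) and the galectin Lgals1 rose and Bmp7 (-2.60), Nrn1 (-3.04), Spp1 (-2.40), which encodes osteopontin, Igfbp4 and the neuropeptide galanin, Gal (-5.83), fell. In Igfbp7 and Nrn1 7.03% and 22.3% of the exon bases overlap Polr2b and Fars2. The cytoskeletal genes Tns1 (-3.71) and Actg2 (-2.71) and the arginine deiminase Padi4 (-2.76) were among the 15 largest decreases. When 1 library was dropped, the call was lost for Spp1 without ZsGreen- 2 (adjusted p up to 0.275), Gal without ZsGreen+ 1 or ZsGreen+ 2 (adjusted p up to 0.168) and Kcnk5 and Abcb1b without 3 or more of the 8 libraries in turn (adjusted p up to 0.341).

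Measured as CPM gained or lost in the mean of both experiments, the order was another. The processed pseudogene Gm4739 (0.78) gained most, at 747 CPM, followed by Cxcr6 at 715 CPM and Lgals1 at 659 CPM. Lgals1 had 639 and 1602 CPM in ZsGreen+ and 229 and 694 CPM in ZsGreen- cells (1.33 ± 0.20, adjusted p = 0.00225). Emb, embigin, which escorts monocarboxylate transporters, had 382 and 1612 CPM against 162 and 613 CPM, and Rgs1, a damper of chemokine receptor signals, 166 and 1624 CPM against 53 and 427 CPM. Experiment 2 gave the higher levels of Lgals1, Emb and Rgs1 on both sides, and ZsGreen+ was higher in each experiment. The other genes that gained most were Sla, Furin, the actin-binding Tagln2 (0.82) and the chromatin genes Hmgb2 (1.10) and H2az1 (1.06), which are also high in cycling cells. Those that lost most by the mean of both experiments were H2-K1, a class I histocompatibility gene, at 1198 and 2354 CPM against 1684 and 8226 CPM (-1.22, adjusted p = 0.0454), and Ms4a4b (-1.29), a membrane protein of T cells. Ccnd2 (-1.13), a G1 cyclin, Rnaset2b (-1.11) and H2-Q7 (-1.76), the last 2 with near-identical copies, followed with Tcf7, Itgb1, Cd3e, Izumo1r and Slamf6. This order rests on experiment 2, and in experiment 1 Tcf7 and Itgb1 lost more CPM than H2-K1. With 1 library left out, calls were lost for Rgs1 without ZsGreen- 1 or ZsGreen- 2 (adjusted p up to 0.118), Hmgb2 without ZsGreen- 1 or ZsGreen+ 1 (adjusted p up to 0.206), H2az1 without ZsGreen+ 1 (adjusted p up to 0.117), Ms4a4b and Ccnd2 without ZsGreen- 2 or ZsGreen+ 2 (adjusted p up to 0.214), Rnaset2b without ZsGreen+ 2 (adjusted p up to 0.169) and Tagln2, Gm4739, H2-K1 and H2-Q7 without 3 or more of the 8 libraries in turn (adjusted p up to 0.349).

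Markers of other cells were measured alongside. The 21 B cell markers in both tables summed to 199 and 260.2 CPM in ZsGreen+ and 265 and 794 CPM in ZsGreen- cells, mostly from Ighm, and Ighm (-1.39), Mef2b (-2.30) and Cd22 (-4.15) fell among 18 tested. The B cell marker Cd79a was at or near 0, and Cd79b was at 0.532 and 3.08 CPM against 0.321 and 0.613 CPM. Cd22 had 2.08 and 0.942 CPM against 33.5 and 17 CPM. The 10 plasma cell markers summed to 139 and 289 CPM against 92.4 and 220.0 CPM. Most of this came from Xbp1, at 80.1 and 269 CPM against 70.6 and 209 CPM. The 1 plasma cell marker called higher was Ighg1, with 2.80 in experiment 1 and -1.07 in experiment 2. Its call was lost with single libraries left out, as given above. The 16 myeloid markers summed to 131 and 210.2 CPM against 92.4 and 142 CPM. Of the 13 tested 1 was called higher, Xcr1 (3.25), the neighbour of Cxcr6, and 0 lower. Their median was -0.42, with 2 higher and 6 lower in both experiments, so the higher sums do not describe the list as a whole. The 18 markers of γδ T cells, NK cells and innate lymphoid cells summed to 1049 and 3228 CPM in ZsGreen+ and 416 and 1353 CPM in ZsGreen- cells. Most of this came from Id2 and Cxcr6, with means of 600 and 425 CPM over the spleen libraries. Both are also members of other lists above, so the sum is not particular to such cells. Of the 18 markers 8 rose and 1 fell. Those that rose were Il1r1, Cxcr6, Blk, Id2 and Scart2 above and Kit (1.69), Klrb1b (3.76) and Klrb1f (2.60). Trdc, the constant gene of the δ chain, fell, with 4.58 and 13.1 CPM against 13.7 and 89.3 CPM (-2.29), and Zbtb16, the factor of innate-like T cells, was at 6.49 and 1.2 CPM and 1.02 and 1.07 CPM (adjusted p = 0.164). The part of such cells in the results was not tested. Calls that 1 library decided were those of Mef2b without ZsGreen- 2 or ZsGreen+ 1 (adjusted p up to 0.0894), Xcr1 without ZsGreen- 2 (adjusted p up to 0.0558), Kit without ZsGreen- 1 (adjusted p up to 0.129) and Ighm, Klrb1b and Trdc without 3 or more of the 8 libraries in turn (adjusted p up to 0.308).

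Of 117 T cell receptor V genes, 5 rose and 1 fell, where 8.62% of all tested genes were called in either direction. Trbv31 had 119.7 and 167 CPM in ZsGreen+ and 32.9 and 71.7 CPM in ZsGreen- cells (1.53 ± 0.24, adjusted p = 0.00648), with both ZsGreen+ libraries above both ZsGreen- libraries, and Trbv14 rose by 1.28. Trbv30, Trav4d-3 and Trav4n-3 rose from below 1 CPM, the last 2 being near-identical copies, and Trav14n-3 fell (-1.13). The call was lost in Trbv30 and Trav14n-3 without ZsGreen+ 1 (adjusted p up to 0.17) and Trbv14, Trav4d-3 and Trav4n-3 without 3 or more of the 8 libraries in turn (adjusted p up to 0.397).

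The sort difference in spleen was set against that in Peyer's patch by a test of the difference itself. It passed in 14 of 14418 genes (0.0971%), and in each of the 14 the change was larger in spleen. Il17re had a log2 fold change of 5.36 in spleen and 2.54 in Peyer's patch, a difference of 2.81 ± 0.36 (adjusted p = 0.0172). Itgb1 had -2.52 and 0.11 (difference -2.63 ± 0.35, adjusted p = 0.0338), which leaves the integrin gene lower on the ZsGreen+ side in spleen, with no call in Peyer's patch (adjusted p = 0.954). Fes, a cytoplasmic tyrosine kinase, and its neighbour Furin had 0.95 and 0.69 in Peyer's patch against 4.60 and 3.07 in spleen. The adhesion receptor Adgrg5 and its neighbour Ccdc102a were higher in ZsGreen+ cells of spleen (3.48 and 1.50) with -0.28 and -0.79 in Peyer's patch. The other genes were Acsbg1, an acyl-CoA synthetase, Il1r1, Rbpj, Scpep1, Slc2a3, Tgfbr3, the membrane protein Itm2a and the AP-1 family repressor Jdp2. Between 2 and 93 genes passed this test when 1 library was left out, 144 by DESeq2 and 0 without the block for experiment.

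**Figure D5:**
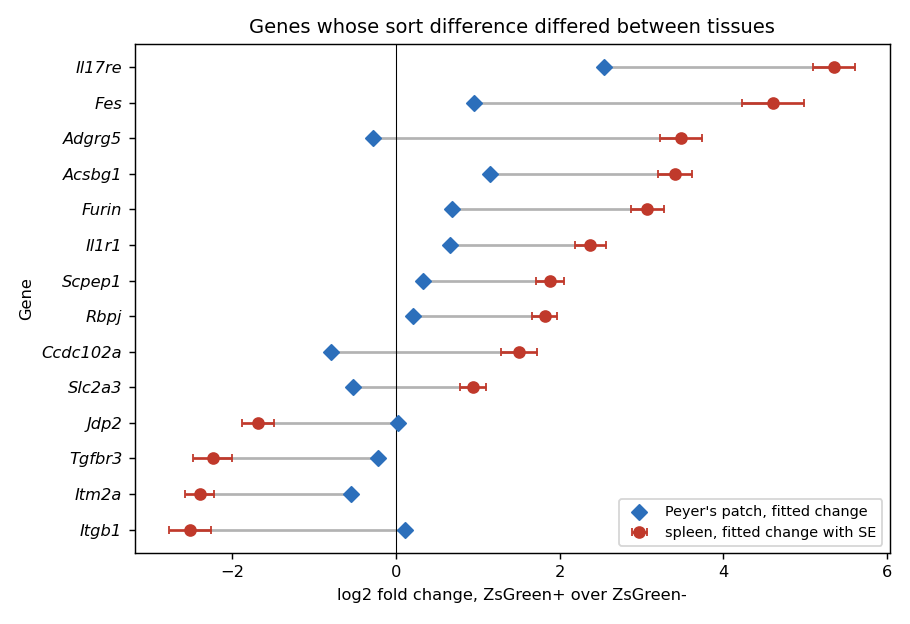
Fitted log2 fold change, ZsGreen+ over ZsGreen-, of the 14 genes whose sort difference differed between the tissues, as red circles for spleen (bars: SE) and blue diamonds for Peyer's patch. The red points lie from -2.52 (Itgb1) to 5.36 (Il17re), each farther from 0 than the blue point of the same gene.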

How the data were processed

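Messenger RNA of sorted spleen and Peyer's patch Tfh cells was measured in 8 libraries, 2 per group, 1 from each of 2 experiments. The raw tables deposited by the authors hold an estimated count of reads per gene. The submitters' processing notes name Partek, STAR, DESeq2 and the build mm39, and no version or setting is given in the sources used here. The normalized tables hold a signal that the authors made, per the values the counts times 1 constant per library (factors 0.765 to 1.58), used only for 1 alternative. Per the labels, libraries came from a poly A kit or from an ultra-low-input kit that is not directional, without saying which library had which.

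Counts were rounded, and the 16735 genes in both experiments' tables were joined by gene identifier (18114 and 20397 genes). After edgeR's filterByExpr (minimum count 10, minimum total 15) 14418 genes were tested and 2317 were not. edgeR 4.0.16 (R 4.3.3) fitted a robust quasi-likelihood model with TMM scaling over all 8 libraries, with a mean for each of 4 groups and a term for the experiment (3 residual degrees of freedom). The F tests were two-sided, with Benjamini-Hochberg adjustment over all tested genes and a threshold of 0.05. The SE was derived from the F statistic, and log2 CPM within experiments used a prior count of 2. The labels give the experiment, each group has 1 library in each, and deviations from group means of libraries of 1 experiment correlated across genes (6 pairs, r between 0.825 and 0.867). Nothing says that replicates come from separate animals, so p-values measure the spread between these libraries, which may be technical.

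On simulated counts for this contrast (14418 genes, 50 changed at each fold) the model recovered 12% at 1.5-fold, 48% at 2-fold, 70% at 4-fold and 84% at 8-fold, and 22 of 129 calls (17.1%) were genes that had not been changed, more than the nominal share. Named genes were the sort genes, the 15 largest changes each way with at least 5 CPM in both libraries of the higher group, the 10 genes that gained or lost most CPM, up to 4 list members each way with the smallest p, and the 5 largest with a tissue difference. Others, such as neighbours, T cell receptor genes and further list members, were chosen after their values were seen. Some of these genes are not reported here, though list counts and medians include them. Members, the 38 lists (711 symbols tested) and the rule were chosen with earlier results of these data known. Alternatives were other fits with or without the block, DESeq2 1.42.0 (test and size factors), limma 3.58.1 on log2(signal + 1), other count filters, genes in either table, and each library left out. Promoter windows were searched on both strands in the 250 bases before RefSeq starts (GRCm38.p6). Gene positions are those of the files (mm39), and exon overlaps were computed from the reference annotation (GENCODE M21).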

Additional observations from a re-analysis of the deposited data

Results flagged for a closer look

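The sort difference itself differed between spleen and Peyer's patch in 14 genes by edgeR's interaction test, each with a change of larger size in spleen. The differences of log2 fold changes (spleen minus Peyer's patch) were 3.76 for Adgrg5, 3.65 for Fes, 2.81 for Il17re, 2.38 for Furin, 2.29 for Ccdc102a and 2.26 for Acsbg1. They were 1.71 for Il1r1, 1.61 for Rbpj, 1.55 for Scpep1 and 1.46 for Slc2a3. Negative values, for genes lower in ZsGreen+ cells of spleen, were -2.63 for Itgb1, -2.02 for Tgfbr3, -1.86 for Itm2a and -1.71 for Jdp2.

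Genes listed in only 1 experiment's table entered no comparison. Of the 14 with at least 100 counts over the spleen libraries of that experiment, 3 had at least 2 times the CPM in ZsGreen+ cells and 4 at least 2 times the CPM in ZsGreen- cells. The ratios of ZsGreen+ to ZsGreen- cells were 12.7 for the immunoglobulin gene Igkv1-117 and 2.12 for Gm21985 in experiment 1, and 2.97 for the pseudogene Gm10259 in experiment 2. The lower ones were 0.0697 for Rpl31-ps11, 0.0864 for 1810049J17Rik and 0.117 for Gm19810 in experiment 1, and 0.258 for Gm37376 in experiment 2. With 1 library a side these ratios have no test.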

How the results depend on the processing

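The 1243 spleen calls numbered from 1232 to 1494 under the other fits that keep the replicate block, DESeq2, limma on the signal, the other filters and genes in either table, and these fits shared 86.6% to 99.0% of the calls. Without the replicate block edgeR called 0 (398 at an unadjusted p under 0.05, where 721 are expected), the study's criterion took 398 genes in place of 2000, and the interaction 0 in place of 14. With 1 library left out, calls ranged from 487 to 1357, those by the criterion from 1717 to 2083 and the interaction from 2 to 93. The interaction count was 144 by DESeq2 and 47 without the filter on low counts. The cause of these changes was not tested, apart from the libraries lost. Of 234 called genes among the 254 selected by the rule or named, 91 passed with any library left out. Ighg1 reversed to -3.50 without replicate 1 of spleen ZsGreen- and to -1.08 without replicate 1 of spleen ZsGreen+, and ranged up to 2.87 with other libraries left out. Gm45234 reversed to 0.43 without replicate 1 of spleen ZsGreen- and ranged down to -4.08 with other libraries left out. With 2 libraries a side, 12% of simulated 1.5-fold changes were recovered, so that small changes are mostly not detectable here, and a missing call does not show that levels were equal.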
